A study of Homo sapiens with 12 samples.

Results

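The cytosolic ribosomal protein genes encode the proteins that, with ribosomal RNA, form the large and small subunits of the ribosome in the cytoplasm. Members were the rows of the count table whose symbols have the standard RPL or RPS form, with RPLP0, RPLP1, RPLP2 and RPSA, and without the RPS6K kinases and pseudogenes. This gave 86 of 28278 genes. Of these, 46 core genes belong to the large subunit, 31 core genes belong to the small subunit, and 9 are paralogs of a core gene. In all, 83 members were among the 15916 genes that passed the filter on low counts. The members below it were RPL10L, which was listed at 0 counts in every library, and 2 Y-linked paralogs, whose levels are not given.

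RNA was sequenced from WA26, an established human embryonic stem cell (hESC) line, that was wild type (WT) or carried a CRISPR-Cas9 knockout of UBQLN1 (KO). UBQLN1 encodes ubiquilin 1, a shuttle factor that binds ubiquitin and proteasomes. Of 12 samples in the labels, 8 libraries were analysed, 2 in each of 4 groups. They were WT and KO at normal O2, both with no treatment named, KO at 5% O2, and KO with NAC (N-acetyl-L-cysteine, an antioxidant). The NAC titles give no O2 level. For low O2, the paper's text gives the culture before RNA-seq in hours. Its scheme gives repeated passages with NAC or low O2, with DMSO as control. Culture time, passage and vehicle of each library are thus unclear, and may differ between groups together with the treatments. The 4 WT libraries at low O2 or with NAC were not analysed here, so the effects of these conditions in WT cells were not compared. The KO cells came from picked clones, but the clone behind each library is not named, and what clones differ in cannot be told apart from the genotype. The study calls the replicates behind the 5% O2 comparison biological, but the sources used here do not say for each group whether replicates were separate cultures, so p-values measure the spread between these samples.

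Library totals ran from 31236968 to 41639350 counts. UBQLN1 was at 221 and 197 CPM (counts scaled to the normalized library total) in WT and at 42.3 and 43.5 CPM in KO, a log2 fold change of -2.29 ± 0.12 (SE, adjusted p = 2.52e-06 by edgeR's quasi-likelihood test). All 10 pluripotency markers had at least 10 counts in every library, and summed to between 5484 and 7199 CPM, lowest in both NAC libraries. Neural progenitor markers summed to 121 to 485 CPM, highest in both KO libraries at normal O2, and fibroblast and mesenchyme markers to 500 to 878 CPM, highest in NAC library 1. Much of the latter sum came from THY1, at 332 to 476 normalized CPM across all libraries, and COL1A2, at 113 to 245 CPM. NAC library 1 stood apart by COL3A1, a fibrillar collagen, at 29.1 CPM against 0 to 0.207 CPM in the other libraries. DCN and LUM, markers of the same list, were at 47.2 and 3.86 CPM there and at 0 counts in the other 7 libraries, and PDGFRB was at 27.7 CPM against 1.17 to 4.25 CPM. An admixture of other cells or RNA in that library, and the part of all these differences in the results, were not tested.

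A ribosome needs about equal numbers of most of its proteins, and cells tie their production to growth. Most of these mRNAs begin with a C followed by an uninterrupted run of pyrimidines, the 5′ terminal oligopyrimidine (TOP) motif. Through this motif LARP1 and the mTORC1 kinase complex control their translation and stability. Surplus ribosomal proteins are degraded, and RPL5 and RPL11 not built into ribosomes can bind MDM2 and stabilise p53. Human stem cells are known for active ribosome production.

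The annotated transcript start was compared with the TOP motif in RefSeq sequence of GRCh38.p14, which held 62 of the 77 core genes. A C at the start followed by at least 4 further pyrimidines stood at 42 of these 62 genes, or 67.7%, against 4.04% of 27305 RefSeq starts. The 30 bases shown run from 10 bases before the start to 20 bases from it, and capitals mark the pyrimidine run from the first transcribed base. The first 4 had high increases with NAC, and RPL28 and RPLP2 had little difference. RPS27 and RPL22 are shown with their paralogs, and RPS27L has no such run.
RPS3A, chr4:151099618-151099647, plus strand: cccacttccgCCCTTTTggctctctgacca
RPL31, chr2:101002279-101002308, plus strand: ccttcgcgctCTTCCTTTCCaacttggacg
RPSA, chr3:39406710-39406739, plus strand: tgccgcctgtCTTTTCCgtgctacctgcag
RPLP0, chr12:120201092-120201121, minus strand: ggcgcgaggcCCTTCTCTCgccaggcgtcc
RPL28, chr19:55385922-55385951, plus strand: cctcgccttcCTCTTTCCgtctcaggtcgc
RPLP2, chr11:809957-809986, plus strand: tcggcgccttCCTTTTCCTCCCTgtcgcca
RPS27, chr1:153990752-153990781, plus strand: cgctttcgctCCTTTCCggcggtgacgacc
RPS27L, chr15:63157458-63157487, minus strand: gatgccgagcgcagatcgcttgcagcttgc
RPL22, chr1:6199576-6199605, minus strand: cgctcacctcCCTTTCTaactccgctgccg
RPL22L1, chr3:170870176-170870205, minus strand: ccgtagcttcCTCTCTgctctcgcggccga

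The members took a larger share of the library in KO cells with NAC than in any other group. They held 7.89% and 8.80% of all counts in the WT libraries and 6.95% and 7.46% in the KO libraries at normal O2. At 5% O2 the KO libraries held 8.84% and 8.42%, and with NAC they held 10.6% and 10.4%. The WT range thus lay above KO at normal O2 and below NAC, and the libraries at 5% O2 overlapped WT. Group means were 8.35% ± 0.648 in WT, 7.20% ± 0.362 in KO, 8.63% ± 0.293 at 5% O2 and 10.5% ± 0.185 with NAC (SD, n = 2 each). With 2 libraries against 2, no exact test of such a share can pass, and none was made. A share of counts is relative to all other RNA in the library, and fewer cells of a type and less RNA per cell cannot be told apart in bulk samples.

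**Figure D1:**
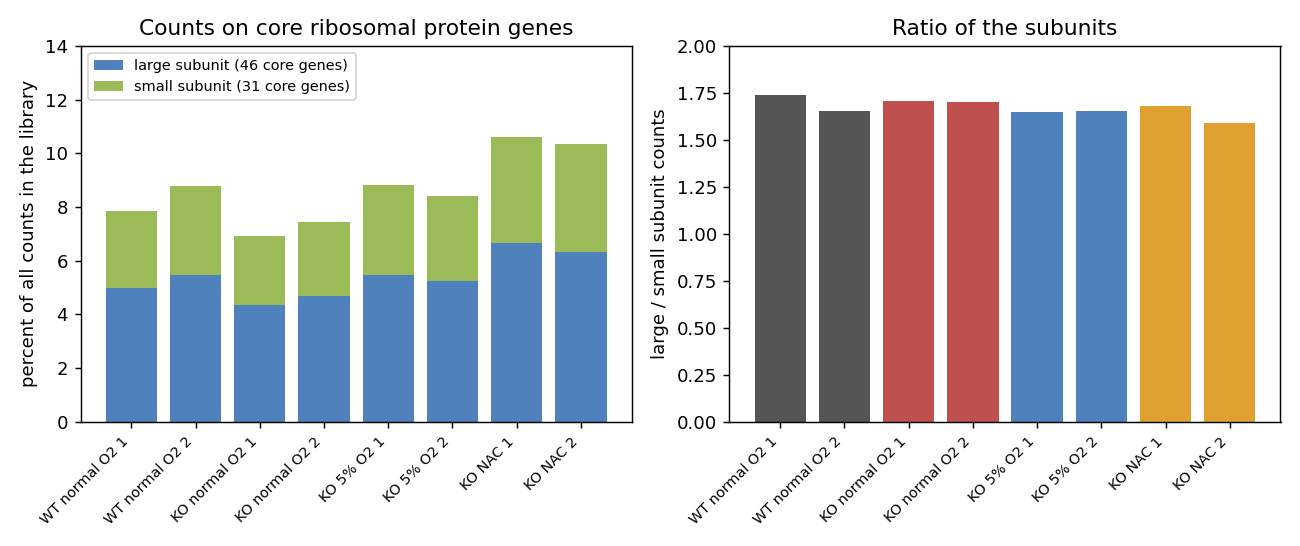
Left, percent of all counts in each library that fell on the 46 large subunit (blue) and 31 small subunit (green) core genes, stacked. Right, summed large subunit counts divided by summed small subunit counts, each bar 1 library (grey WT, red KO at normal O2, blue KO at 5% O2, yellow KO with NAC). The shares are lowest in the KO libraries at normal O2 and highest with NAC, while the ratios stay between 1.59 and 1.74.

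The balance between the subunits moved little. Large subunit genes held 1.74 and 1.66 times the counts of small subunit genes in WT, and 1.71 and 1.70 times in KO at normal O2. The ratio was 1.65 and 1.66 at 5% O2, and 1.68 and 1.59 with NAC. Group means ran from 1.64 to 1.70, a range no wider than the gap between the WT libraries or between the NAC libraries. Many members have processed pseudogenes, which are intronless copies elsewhere in the genome, and reads that fit a copy equally well can be lost. The 44 members with under 50% of their 31-base words elsewhere in the genome held 3.89% ± 0.312 of counts in WT, 3.37% ± 0.199 in KO, 3.98% ± 0.0647 at 5% O2 and 4.73% ± 0.0370 with NAC (SD, n = 2 each), in the same order as all members.

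The first comparison asked what loss of UBQLN1 changed at normal O2. Most ribosomal protein mRNAs had values slightly below those of WT in the KO cells, and 1 passed the test over all genes. The median log2 fold change of the 83 members was -0.21, a 0.867-fold level, against -0.0024 over all genes tested, and 78 of 83 values were below 0. By edgeR's quasi-likelihood test (Benjamini-Hochberg), 1 member was lower, against 0.622% of all genes, and 0 were higher, against 1.34%. At an unadjusted p under 0.05, 43 members were lower, against 8.12% of all genes, and 1 was higher, against 9.50%. Both KO libraries lay below both WT libraries for 60 members, against 27.0% of all genes, and above them for 1 member, against 27.7%. DESeq2 called 15 members lower, against 2.19% of the genes to which it gave an adjusted p, and 0 higher, against 3.79%.

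RPS27, a small subunit protein with a zinc finger, was the member that fell. It was at 589 and 672 CPM in WT and at 460 and 476 CPM in KO, with no overlap, a log2 fold change of -0.43 ± 0.09 (SE, adjusted p = 0.0328). The call was lost when WT library 2, either KO library at normal O2 or either library at 5% O2 was left out. Without NAC library 1 or NAC library 2, by contrast, 15 and 16 members were called lower.

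Other low values among core genes did not pass. RPS3A, a small subunit protein, was at 1875 and 2909 CPM in WT and at 1377 and 1613 CPM in KO, a log2 fold change of -0.68 ± 0.20 (SE, adjusted p = 0.107). RPL15 had a log2 fold change of -0.46 and RPL9 of -0.43, with adjusted p of 0.0592 and 0.157. The WT libraries differed from each other at RPS3A: WT library 2 held more than WT library 1 by more than the gap between WT library 1 and the KO libraries. RPSA, the laminin receptor protein of the small subunit, had a log2 fold change of -0.36 (adjusted p = 0.0887). RPLP0, the base of the ribosomal stalk, had -0.39 (adjusted p = 0.0767). RPS6, the target of S6 kinases, had -0.36 (adjusted p = 0.0819). Both KO libraries lay below both WT libraries for all 3 of these genes.

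Some members showed no such difference. RPS27A, which is made as a fusion with ubiquitin and so supplies both, was at 374 and 347 CPM in WT and at 345 and 368 CPM in KO, a log2 fold change of -0.02. RPL11 was at 689 and 645 CPM in WT and at 627 and 661 CPM in KO, a log2 fold change of -0.05. The values of the 2 genotypes overlapped for both genes. The member with both KO libraries above both WT libraries was the paralog RPL7L1, at 109 and 114 CPM in WT and at 128 and 127 CPM in KO, a log2 fold change of 0.20 ± 0.11 (SE, adjusted p = 0.38). The other values above 0 came from members with few or uneven counts. RPS9 had a log2 fold change of 2.40 (adjusted p = 0.178), which rested on KO library 2 at 20.8 CPM against 1.49 to 2.22 CPM in KO library 1 and the WT libraries. RPS18 had 0.52 (adjusted p = 0.492), with WT library 1 at 204 CPM and the other 3 libraries at 615 to 700 CPM. RPL36A, at 9 to 17 counts in these libraries, had 0.13 and RPL17 had 0.09.

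Gene models bear on these members. On alternate scaffolds of the genome, 84.2% of the RPS9 transcript's 31-base words and 74.2% of those of RPS18 occur again. Over the exons, RPL17 shares 96.9% of its bases with the readthrough gene RPL17-C18orf32, RPS10 shares 84.0% with RPS10-NUDT3, and RPL36A shares 43.8% with RPL36A-HNRNPH2. Reads that fit several places or genes were not counted at the authors' default setting, so the levels of these genes are uncertain. RPS9, RPL17, RPS10 and RPL36A were among the core genes with a mean under 100 CPM. The 72 core genes with at least 100 CPM are used where members are described by their sequence.

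**Figure D2:**
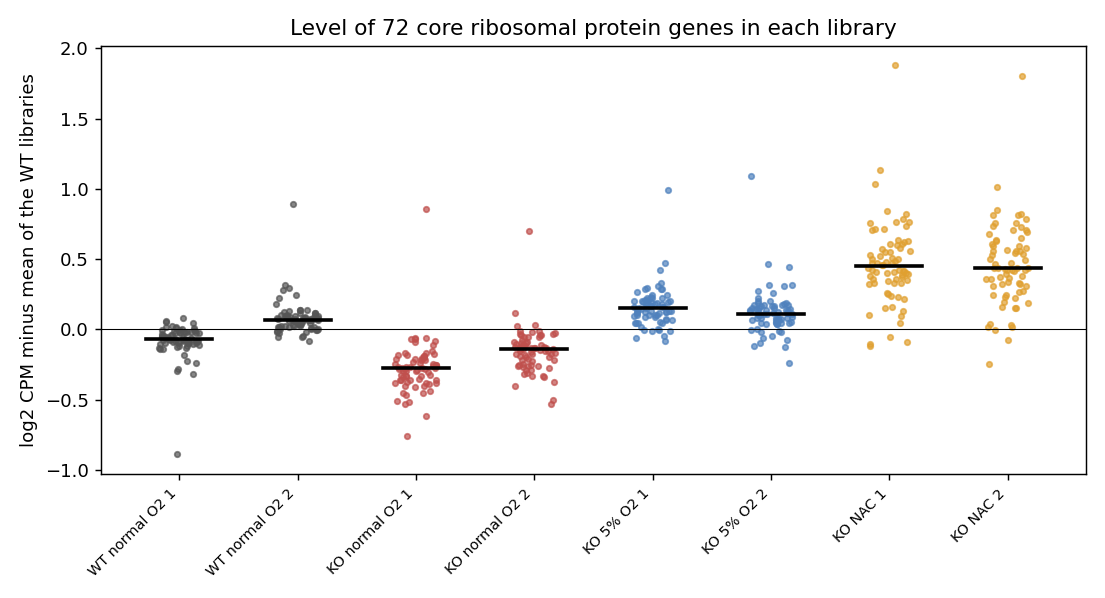
Each point is 1 of the 72 core ribosomal protein genes with a mean of at least 100 CPM, in 1 library, as log2 CPM (prior count 2) minus the mean of the WT libraries, and black bars are medians. The medians are -0.28 and -0.14 in KO at normal O2, 0.15 and 0.11 at 5% O2, and 0.45 and 0.43 with NAC.

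Library by library, 1 and 4 of these 72 genes lay above the WT mean in the KO libraries at normal O2. At 5% O2 there were 65 and 61, and with NAC 68 and 69. The WT libraries themselves had medians of -0.067 and 0.067 on this log2 scale, so the 2 WT libraries differed by about as much as KO library 2 differed from their mean.

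The second comparison asked what NAC changed in KO cells at the transcript level. Ribosomal protein mRNAs of both subunits rose. Of the 83 members tested, 71 were higher with NAC than without, against 23.8% of all genes tested, and 0 were lower, against 20.8% of all genes, by edgeR's quasi-likelihood test with an adjusted p under 0.05. At an unadjusted p under 0.05, 72 were higher and 0 were lower, against 27.2% and 24.1% of all genes. DESeq2 called 70 higher and 0 lower, against 24.0% and 23.5%. The higher members were 41 of 46 large subunit core genes, 27 of 31 small subunit core genes and 3 of 6 paralogs tested. The median log2 fold change was 0.65, a 1.57-fold level, against 0.023 over all genes. Both NAC libraries lay above both untreated KO libraries for 75 members, against 36.2% of all genes, and below them for 1 member, RPL17, against 34.0%. Without NAC library 1, which held the collagen signal, 69 members were higher and the median was 0.64. On raw library totals, the 10 pluripotency markers summed to 5809 and 5484 CPM with NAC against 7199 and 6896 CPM without. Normalization narrows this gap, with factors of 0.939 and 0.959 with NAC and 1.05 and 1.05 without. In normalized CPM, DNMT3B was at 1137 and 1418 against 2553 and 2455. NANOG, SOX2, L1TD1 and SALL4 also lay lower in both NAC libraries. DPPA4, at 1135 and 1072 CPM against 683 and 678 CPM, ZFP42 and TDGF1 lay higher in both, and POU5F1 and LIN28A overlapped. The 5 neural progenitor markers summed to 121 and 131 CPM against 485 and 453 CPM. Their part in the result was not tested.

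**Figure D3:**
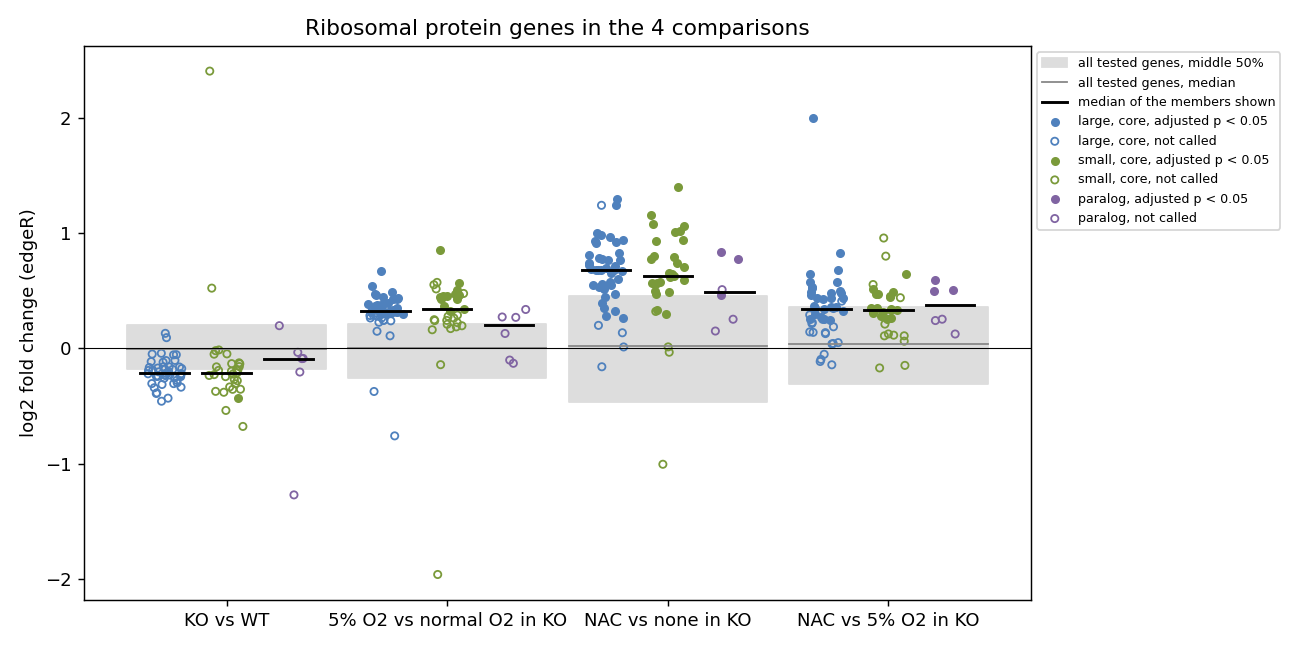
Log2 fold change of each tested member (edgeR) in the 4 comparisons, for large subunit core genes (blue), small subunit core genes (green) and paralogs (purple), with filled points for an adjusted p under 0.05. Black bars are medians of the points, and grey bands and lines are the middle 50% and the median of all 15916 tested genes. Nearly all points with NAC lie above 0 and are filled, while 1 point is filled in KO against WT.

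Among the core genes, RPS3A and RPL31 had the highest called increases. RPS3A was at 1377 and 1613 CPM without NAC and at 4022 and 3883 CPM with it, a log2 fold change of 1.40 ± 0.20 (SE, adjusted p = 0.000174). RPL31, a large subunit protein at the exit of the peptide tunnel, was at 574 and 612 CPM without NAC and at 1646 and 1265 CPM with it, a log2 fold change of 1.30 ± 0.11 (SE, adjusted p = 1.6e-05). RPL9 was at 294 and 335 CPM without NAC and at 739 and 755 CPM with it, a log2 fold change of 1.25 ± 0.15 (SE, adjusted p = 5.88e-05). The groups did not overlap for any of them. RPL9 has 92.7% of its 31-base words on alternate scaffolds, and 99.3% of those of RPS3A recur elsewhere in the genome, against 22% for RPL31. RPL36A, at 11 to 29 counts, had a log2 fold change of 1.24 that did not pass (adjusted p = 0.148).

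The mRNAs of proteins with known roles of their own rose as well. RPSA went from 1801 and 1865 CPM to 4200 and 3536 CPM, a log2 fold change of 1.08 ± 0.10 (SE, adjusted p = 1.87e-05). RPL5 went from 1022 and 947 CPM to 1950 and 1884 CPM, a log2 fold change of 0.96 ± 0.08 (SE, adjusted p = 1.45e-05). RPL11, which with RPL5 and the 5S RNA forms a complex of the large subunit, had 0.93. RPS6 had 0.94, and RPS26, which helps to recognise the context of the start codon, had 0.93. RPL41, the smallest ribosomal protein, had 0.93. RPL10, which joins late in assembly near the peptidyl transferase centre, had 0.39. RPS19, the protein most often mutated in Diamond-Blackfan anaemia, had 0.47, and RPS27A had 0.49. All 9 of these genes passed, with adjusted p from 1.45e-05 to 0.0075. With a trend on transcript length and GC content removed, RPS27A had -0.28 (adjusted p = 0.181), so its direction turned and the call was lost.

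The stalk proteins did not move together. RPLP0, RPLP1 and RPLP2 form the acidic stalk that recruits translation factors. RPLP0 went from 2673 and 2870 CPM to 6044 and 5040 CPM, a log2 fold change of 1.00 ± 0.10 (SE, adjusted p = 2.83e-05), and RPLP1 had a log2 fold change of 0.69 (adjusted p = 0.000102). RPLP2 went from 635 and 694 CPM to 706 and 752 CPM, a log2 fold change of 0.13 ± 0.09 (SE, adjusted p = 0.264). RPL28 was at 712 and 725 CPM without NAC and at 693 and 755 CPM with it, a log2 fold change of 0.01. RPS9, RPL17 and RPS10, all with a mean under 100 CPM, had -1.01, -0.16 and -0.03, and did not pass. For RPS9 the untreated libraries were at 1.49 and 20.8 CPM, so this value too rested on 1 library.

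The study's cutoffs were an absolute log2 fold change over 1 with an unadjusted p under 0.05, set on DESeq2 results. Applied here to the edgeR fit of all 4 groups, they gave 8 members higher, against 3.63% of all genes. These were 2 large subunit genes and 6 small subunit genes. RPS18 was one of them, at 684 and 615 CPM without NAC and at 1391 and 1319 CPM with it, a log2 fold change of 1.06 ± 0.37 (SE, adjusted p = 0.0352). Its untreated and treated pairs each agreed closely, and the wide error of the shared fit includes the spread of the WT libraries. The call was lost with DESeq2 (adjusted p = 0.12) and with the length and GC trend removed (adjusted p = 0.0911).

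The paralogs were less abundant than their core partners and rose in part. Levels are compared here as CPM per kilobase of coding sequence, averaged over the 8 libraries. The percentages depend on this choice, and transcript length was not used instead. Annotated transcripts have 6110 bases for RPS27L and 352 for RPS27, but 1902 for RPL22L1 and 2061 for RPL22. The share of words elsewhere in the genome was 95.3% for RPS27 against 24.7% for RPS27L, and 94.2% for RPL39 against 9.87% for RPL39L. For RPL7L1 it was 72.4%, above 67% for RPL7. Reads can thus be lost unequally within a pair, so the percentages are uncertain. RPL22L1 was at 15% of RPL22, RPL7L1 at 10.5% of RPL7, RPL39L at 10.5% of RPL39, RPL26L1 at 6.35% of RPL26, RPS27L at 5.90% of RPS27, and RPL3L, a paralog known from muscle, at 0.0160% of RPL3. With NAC, RPL26L1 rose from 28.5 and 32 CPM to 49.4 and 58.6 CPM, a log2 fold change of 0.83 ± 0.13 (SE, adjusted p = 0.000291), and its partner RPL26 by 0.77. RPS27L, whose gene is a target of p53, rose from 26 and 30.1 CPM to 53.7 and 42.3 CPM, a log2 fold change of 0.77 ± 0.14 (SE, adjusted p = 0.000692). Its partner RPS27 had a log2 fold change of 0.33 (adjusted p = 0.0097). RPL39L rose by 0.46 on the log2 scale and RPL39 by 0.77. With the length and GC trend removed, RPL26L1 (0.27), RPS27 (0.12), RPL39L (0.17) and RPL39 (0.22) no longer passed.

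RPL22L1 and RPL22 did not pass. RPL22L1 was at 48.3 and 54.4 CPM without NAC, at 40.0 CPM in NAC library 1 and at 82.6 CPM in NAC library 2, so the NAC pair straddled the untreated pair. Its log2 fold change was 0.25 ± 0.24 (SE, adjusted p = 0.419), and it changed sign without NAC library 2. RPL22, at 357 and 341 CPM without NAC and at 417 and 384 CPM with it, had a log2 fold change of 0.20 (adjusted p = 0.0608). RPL7L1, which takes part in ribosome assembly, had 0.15 and did not pass, while RPL7 had 0.68 and passed. With the length and GC trend removed RPL7 had -0.12 (adjusted p = 0.359), so this call was lost and the direction turned. RPL3L had 0.51, from 8 to 24 counts per library, and RPL3 rose by 0.60.

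The third comparison asked what 5% O2 changed in KO cells. Ribosomal protein mRNAs rose here too, by less. Of the 83 members, 38 were higher at 5% O2 than at normal O2, against 3.68% of all genes, and 0 were lower, against 4.13%, by edgeR's quasi-likelihood test with an adjusted p under 0.05. They were 25 large subunit and 13 small subunit core genes and 0 paralogs. At an unadjusted p under 0.05, 65 were higher and 2 lower, against 12.4% of all genes in each direction. DESeq2 called 56 higher and 0 lower, against 9.32% and 9.17%. The median log2 fold change was 0.32, a 1.25-fold level, against -0.00025 over all genes. Both libraries at 5% O2 lay above both at normal O2 for 73 members, against 30.7% of all genes. The count of called members was 0 when KO library 1, KO library 2 or the first library at 5% O2 was left out, and 15 without the second. The median then ran from 0.26 to 0.40.

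RPS3A again had the highest value, from 1377 and 1613 CPM at normal O2 to 3239 and 2149 CPM at 5% O2, a log2 fold change of 0.85 ± 0.20 (SE, adjusted p = 0.0281). RPL9 had 0.67 ± 0.15 (SE, adjusted p = 0.0237) and RPSA 0.57 ± 0.10 (SE, adjusted p = 0.0101). RPS21 had 0.57 and did not pass (adjusted p = 0.0597). RPLP0, at 4295 and 3745 CPM, rose by 0.54 on the log2 scale, and RPS27, at 627 and 700 CPM, by 0.50. RPS6 rose by 0.47, RPS26 by 0.44, RPL5 by 0.39, RPLP1 by 0.37, RPL10 by 0.35 and RPL22 by 0.31. RPLP2 had 0.28, RPL11 0.28, RPS27A 0.28, RPL41 0.24 and RPS19 0.21, and none of them passed. The lowest values were those of RPS9 at -1.96, RPL36A at -0.76, RPL17 at -0.38 and RPS10 at -0.14, all members of uncertain level, and none passed. RPL39L had -0.13, with both libraries at 5% O2 below both at normal O2, and did not pass. UBQLN1 had a log2 fold change of 0.22 (adjusted p = 0.283) at 5% O2 and of 0.38 (adjusted p = 0.0196) with NAC. With the length and GC trend removed, UBQLN1 had 0.21 with NAC (adjusted p = 0.164), so that call was lost.

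The comparisons of KO with WT, NAC with no treatment and 5% O2 with normal O2 all use the same 2 KO libraries at normal O2, so low values there appear as a decrease in the first and as increases in the others. KO cells with NAC and KO cells at 5% O2 were therefore compared directly, without those libraries as a reference. Culture time and passage may differ between these 2 groups too, and cannot be told apart from the treatments. Of the 83 members, 51 were higher with NAC than at 5% O2, against 15.5% of all genes, and 0 were lower, against 13.6%, by the same test. At an unadjusted p under 0.05, 59 were higher and 0 lower, against 22.0% and 18.6% of all genes. DESeq2 called 51 higher and 0 lower, against 17.1% and 17.7%. The median log2 fold change was 0.33, against 0.038 over all genes, and both NAC libraries lay above both libraries at 5% O2 for 66 members, against 33.4% of all genes. Without the second library at 5% O2 the count was 14, and without the first it was 27.

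RPL31 had a log2 fold change of 0.83 ± 0.11 (SE, adjusted p = 0.000611) between these groups, with 837 and 804 CPM at 5% O2. RPL11 had 0.65, RPL39L 0.59 and RPL5 0.57, and all 3 passed. RPL36A had 2.0 (adjusted p = 0.0483), from 13 and 3 counts at 5% O2 to 29 and 29 counts with NAC. RPS9 had 0.96 and RPS18 had 0.80, and neither passed. The lowest values were those of RPS27 at -0.17, RPS2 at -0.15, RPLP2 at -0.14 and RPL22 at -0.11, none of which passed, and RPL10 had 0.04. Both NAC libraries lay below both libraries at 5% O2 for 4 members, RPS27, RPLP2, RPL22 and RPL12, against 29.2% of all genes.

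The large and small subunits moved by like amounts in every comparison. Median log2 fold changes of large and small subunit core genes were -0.22 and -0.21 in KO against WT, and 0.68 and 0.63 with NAC. They were 0.33 and 0.34 at 5% O2, and 0.34 and 0.33 for NAC against 5% O2. The difference between the subunits with NAC was 0.051, and without NAC library 1 it was -0.070. Members are not replicates, so no test was made of these differences.

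Members were also split by the annotated RefSeq start and by copies elsewhere, and the groups had overlapping fold changes. Among the 72 core genes at 100 CPM or more, the 39 with a C start and a pyrimidine run had a median log2 fold change of 0.69 with NAC, and 36 were called higher. The 19 without it had a median of 0.60, and all 19 were called higher. At 5% O2 the medians were 0.33 and 0.35. As examples chosen by their values, RPLP2 and RPL28 were among the least changed with NAC. Their pyrimidine runs, shown above, had 13 and 8 bases, against a median of 7 over the core genes. RPL9, whose annotated start is an A, was among the most changed. The 36 genes with under 50% of their words elsewhere had a median of 0.61 with NAC, and the 36 with more had 0.70. The ranges overlapped in each case, and annotated starts are not measured starts. For RPL10, RPL11, RPL13, RPL15, RPL6, RPS27A and RPS29, all counted as without the run, the RefSeq start differed from the GENCODE transcript start. The split may therefore misplace genes, and a part of the motif in the increases was not tested.

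Transcript length and GC content moved with the fold changes over all genes. Across 15283 tested genes with a transcript in GENCODE, the NAC fold change (log2) had a Spearman's rho of -0.492 with GC content and of -0.246 with length. For 5% O2 the values were -0.328 and -0.243. The 72 core genes had a median transcript length of 904 bases, against 3239 over all genes, and a median GC content of 47.6%, against 49.0%. Within the 72 genes rho with NAC was -0.253 with GC content and -0.151 with length. Genes share their libraries, so these are descriptions. Members are thus short, and short transcripts of low GC content were higher with NAC in general. The part of RNA quality or library preparation in this was not tested.

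A smooth trend on length and GC content was fitted in each library and removed, and the increases were then smaller. With NAC, 51 members were higher, against 15.1% of all genes, and 2 were lower, RPL17 and RPL22, against 10.7%, and the median log2 fold change was 0.36 against 0.030 over all genes. RPSA had 0.75 and RPLP0 0.82 under this fit, RPS3A 0.69 and RPL31 0.49, and all 4 passed. RPL28, whose annotated transcript is long at 4209 bases, had 0.41 and passed (adjusted p = 0.0022). RPL22 had -0.34 (adjusted p = 0.00773). At 5% O2, 8 members were higher, against 1.71% of all genes, and 1 was lower, RPL17, against 0.352%, with a median of 0.20. The higher members included RPL27A, RPLP0, RPSA, RPL36, RPL14, RPL10 and RPS4X. RPS3A, RPL9, RPL5, RPS6, RPS26, RPLP1, RPS27 and RPL22 no longer passed. For NAC against 5% O2, 23 were higher, against 7.89%, and 1 was lower, RPL22, against 7.81%, with a median of 0.17. In KO against WT, 0 were higher, against 0.584%, and 0 were lower, against 0.622%, with a median of -0.11. Annotated transcripts of several members are far longer than their coding sequence, so the trend was also taken on coding length and coding GC content, a choice made after the data were seen. With NAC, 44 members were then higher, against 15.6% of all genes, and 3 were lower, against 13.3%. At 5% O2, 9 were higher, against 1.71%, and 0 lower, against 0.515%.

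**Figure D4:**
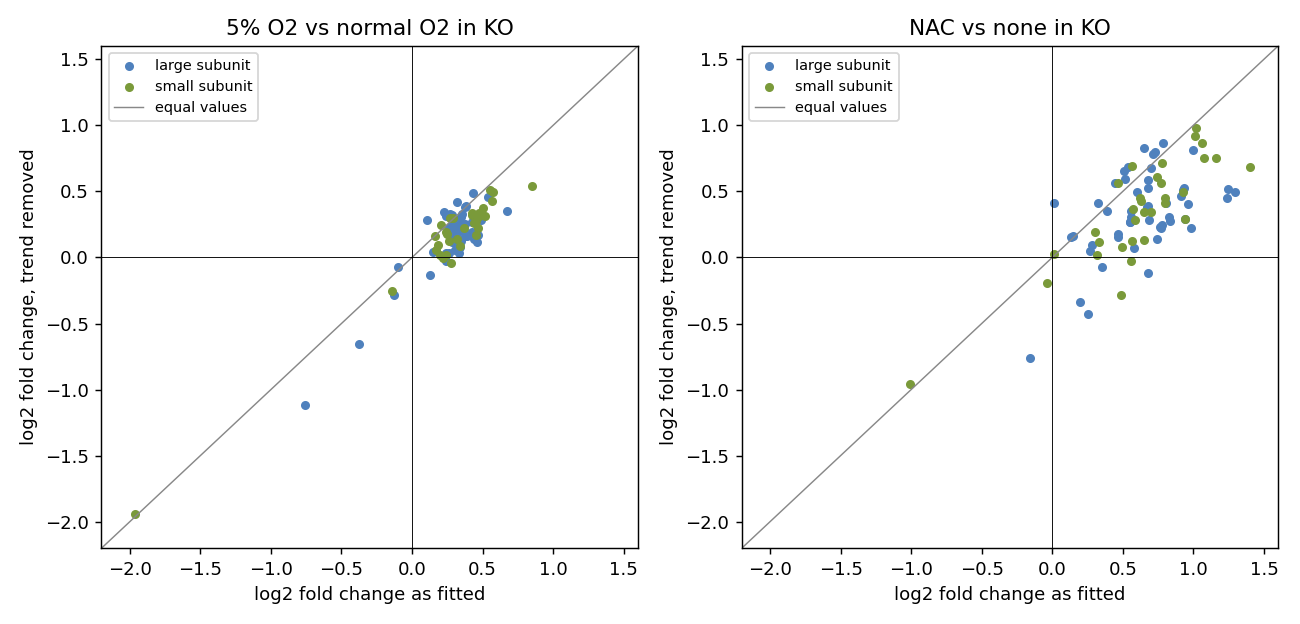
Log2 fold change of the tested members as fitted (horizontal) and after removal of a smooth trend on length and GC content, fitted per library (vertical), for 5% O2 against normal O2 (left) and NAC against none (right) in KO cells. The grey line marks equal values. Most points fall below that line and above 0, and the medians go from 0.32 to 0.20 and from 0.65 to 0.36.

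Other genes of ribosome production and translation were read from 6 lists. In KO against WT, 2 genes of these lists passed, and both were higher. UBTF, which activates transcription of ribosomal DNA, had a log2 fold change of 0.39 (adjusted p = 0.0328), and MDN1, an ATPase of large subunit assembly, had 0.50 (adjusted p = 0.0357). Both calls were lost with upper quartile normalization, with the length and GC trend removed, and when any library of WT, of KO at normal O2 or at 5% O2 was left out. EEF1D had -4.70 and did not pass, with WT library 1 at 180 CPM and the other 7 libraries at 2.30 to 14.8 CPM. EEF1A1, the elongation factor whose mRNA is itself a TOP mRNA, had -0.40 (adjusted p = 0.0581).

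With NAC, all 4 ribosome parts outside the symbol rule rose. RACK1, a scaffold on the small subunit, had a log2 fold change of 0.71. Of all genes tested, 23.8% were higher and 20.8% lower in this comparison. Of 37 translation factors, 25 were higher (67.6%) and 6 lower (16.2%). EEF1A1 was the highest, from 10442 ± 134 CPM to 22077 ± 2659 CPM (SD, n = 2 each), or 1.08 on the log2 scale, and took 1.09% and 1.10% of all counts without NAC and 2.25% and 1.94% with it. EIF3E rose by 0.93 on the log2 scale, while the scaffold EIF4G1 fell by 1.19 and EIF3A by 0.79. Of 72 biogenesis factors, 38 were higher (52.8%) and 15 lower (20.8%), the latter the same share as over all genes. RSL24D1, a factor of large subunit assembly, had 1.24 and the nucleolar GTPase GNL3 had 1.16, while MDN1 had -1.65 and PPAN -0.99, and all 4 passed. EIF3E and RSL24D1 no longer passed with the length and GC trend removed.

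The remaining lists had called genes in both directions. Of 14 genes of the RNA polymerase I machinery, 7 were higher (50%) and 3 lower (21.4%) with NAC. TAF1A had a log2 fold change of 0.93, while POLR1A, the largest subunit of RNA polymerase I, had -1.20 and UBTF had -0.87, and all 3 passed. RRN3 had 3.44 (adjusted p = 0.00703), but stood at 1.04 CPM in NAC library 1 and at 16.2 CPM in NAC library 2. Of 26 genes of control, 6 were higher (23.1%), close to the share over all genes, and 9 lower (34.6%). LARP1, which binds the TOP motif, went from 478 ± 36.9 CPM to 224 ± 8.85 CPM (SD, n = 2 each), which is -1.09 as log2 fold change (adjusted p = 1.46e-05), and RPTOR, the scaffold of mTORC1, had -1.03. TBP rose by 0.78. DDIT4, an inhibitor of mTORC1 signalling, had 2.36 (adjusted p = 0.0144), from 163 CPM in NAC library 1 and 15.2 CPM in NAC library 2 against 17.3 and 17.4 CPM without NAC. Of 19 chaperones and quality control genes, 7 were higher (36.8%) and 6 lower (31.6%), from NAP1L1 at 0.78 and BCCIP at 0.70 to the ubiquitin enzymes HUWE1 at -1.45 and UBE2O at -1.0. With the length and GC trend removed TAF1A and RPTOR no longer passed, and BCCIP had -0.098 and did not pass.

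At 5% O2, 3.68% of all genes were higher and 4.13% lower. Of the 4 other ribosome parts 2 were higher, and of 37 translation factors 10 were higher (27%) and 1 lower (2.7%). Of 72 biogenesis factors 6 were higher (8.33%) and 2 lower (2.78%). Of 14 genes of the RNA polymerase I machinery 2 were higher and 0 lower, of 26 genes of control 2 were higher and 3 lower, and of 19 chaperones and quality control genes 1 was higher and 2 lower. The highest values were those of RRN3, from 0.894 and 0.680 CPM to 17.8 and 13.4 CPM, a log2 fold change of 4.31 (adjusted p = 0.0189), and of DDIT4, from 17.3 and 17.4 CPM to 186 and 189 CPM, a log2 fold change of 3.43 (adjusted p = 0.0193). Neither gene's groups overlapped, and both calls were lost when any library of KO at normal O2 or at 5% O2 was left out. TPT1, a growth-linked TOP mRNA, rose by 0.51 on the log2 scale and NPM1, the abundant nucleolar chaperone, by 0.48. EIF4G1 fell by 0.42, MDN1 by 0.56, DDX52 by 0.60, LARP1 by 0.52, TSC1 by 0.50 and HUWE1 by 0.52, while NAP1L1 rose by 0.44. All of these passed. With the length and GC trend removed, EIF4G1, NPM1, MDN1, LARP1, TSC1 and HUWE1 no longer passed. The median log2 fold changes of the translation factors were 0.38 with NAC and 0.28 at 5% O2, below those of the ribosomal protein genes at 0.65 and 0.32.

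**Figure D5:**
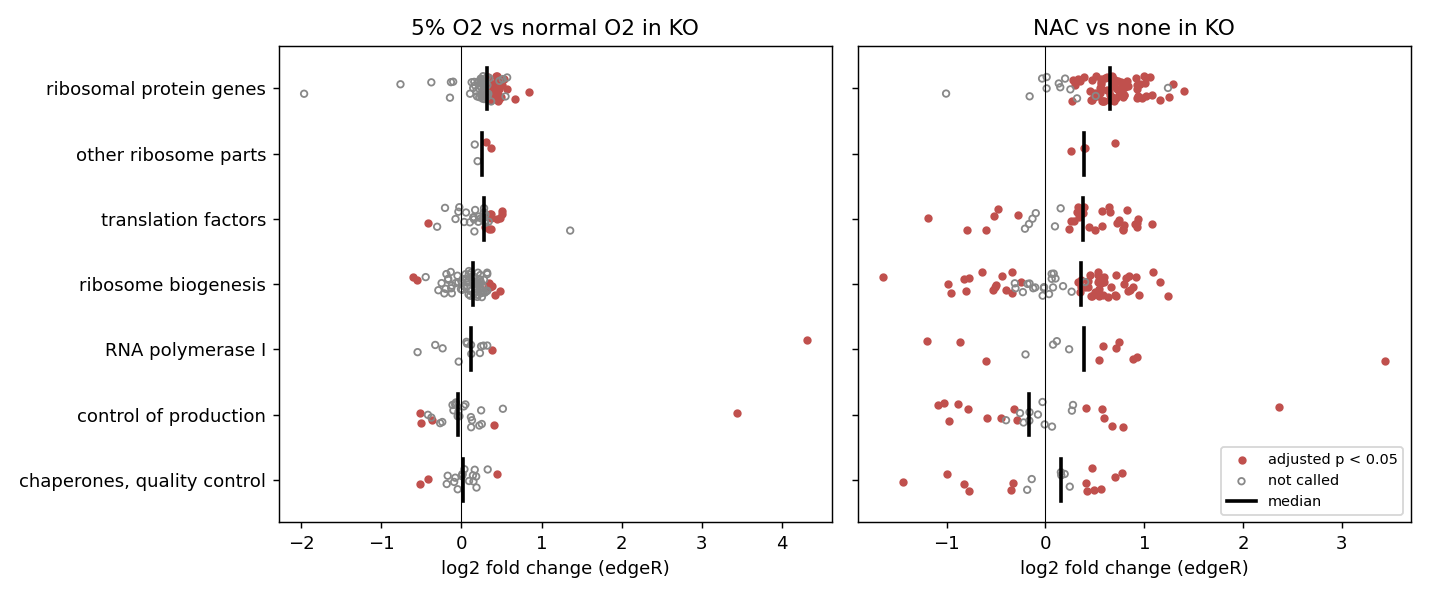
Log2 fold change of each tested gene (edgeR) of the ribosomal protein genes and of 6 further lists, for 5% O2 against normal O2 (left) and NAC against none (right) in KO cells. Red points passed an adjusted p under 0.05, open grey points did not, and black bars are medians. The ribosomal protein genes lie to one side of 0 in most cases, while the other lists with more than 4 genes hold called genes on both sides with NAC.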

How the data were processed

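RNA-seq libraries were analysed from 8 of 12 labelled samples, 2 per group. Per the study's methods, the authors processed reads with trim-galore, HISAT2 (hg38) and featureCounts at default settings, which ignore strand and drop reads that fit several places or genes. The authors deposited unnormalized read counts for each gene. The annotation is not given in the sources used here. Low genes were removed with filterByExpr at a minimum count of 10, library sizes were scaled by TMM, and edgeR 4.0.16 (R 4.3.3) gave the quasi-likelihood tests, with 1 term per group, no block and 4 residual degrees of freedom. The standard error of a log2 fold change was taken as its size over the square root of F, and p-values were adjusted over all genes tested (Benjamini-Hochberg). CPM are TMM-normalized, except that marker sums, like shares, use raw library totals. The biological coefficient of variation was 13.7%, and 2 libraries per group limit the precision. No test on a share of counts was made, and the intervals of counting error are small at these depths beside the spread between libraries.

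Transcript lengths, GC content, overlaps and 31-base words came from GENCODE 44 and hg38, and starts from RefSeq (GRCh38.p14). The trend was fitted with mgcv 1.9.3. The fits were tested on simulated counts. Named genes were the paralogs with their partners, members with a textbook role, the 4 highest and 4 lowest core genes per comparison, and the 2 highest and 2 lowest of each list. Some of these are not printed in every comparison. RPS2, RPS4X, RPL12, RPL14, RPL27A, RPL36 and NPM1 were named after their values were seen or as part of a full count. Values of some genes are not reported here. The members and lists were chosen with earlier results of these data known. Alternatives were other normalizations and filters, DESeq2 1.42.0, a fit of 2 groups, a replicate block, removal of a trend, other thresholds and leaving out each library. Samples with the same replicate number did not deviate together (correlations from -0.0226 to 0.0816). In every group the 2 libraries differed beyond sampling noise, with chi-square values from 9.53 to 30.7 per degree of freedom.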

Additional observations from a re-analysis of the deposited data

How the results depend on the processing

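Normalization, filters and the replicate block left the medians of the members close to those reported, while the counts of calls depended on the test and on single libraries. The cause of these changes was not tested. Shares over all genes are not given for counts with no filter, only 2 groups, a replicate block or a library left out. They are also not given at an adjusted p under 0.01. Such counts thus do not show whether calls moved in the same way over all genes. The coding trend and the counts over pathway lists were added after the data were seen. In KO against WT, members called lower numbered 20 with no filter on low counts, 15 with DESeq2 and 7 with only the 2 groups compared. There were 0 at an adjusted p under 0.01 or by the study's criteria, here and below applied to the edgeR fit. Members called higher were 2 with no filter and 1 by the study's criteria. At 5% O2, members called higher were 64 with only the 2 groups compared, 2 at an adjusted p under 0.01 and 0 by the study's criteria, and 1 was lower with no filter and by the study's criteria. With NAC, 8 were higher by the study's criteria and 1 was lower with no filter. For NAC against 5% O2, 23 were higher at an adjusted p under 0.01 and 1 by the study's criteria. The pathway lists in KO against WT had 0 genes higher and 1 lower with upper quartile normalization, 9 and 8 with no filter, 7 and 6 with DESeq2, and 8 and 7 with only the 2 groups compared. At 5% O2 they had 38 and 14 with no filter and with DESeq2, and 45 and 15 with only the 2 groups compared. Members with under 50% of their words elsewhere held 3.89%, 3.37%, 3.98% and 4.73% of counts in WT, KO, 5% O2 and NAC. RPL28 with NAC had -0.018 with RLE normalization and with DESeq2, -0.0046 with upper quartile normalization, -0.00089 with at least 10 counts in every library and -0.011 with only the 2 groups compared.

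With the transcript trend removed, the members' median was -0.11 in KO, 0.36 with NAC, 0.20 at 5% O2 and 0.17 for NAC against 5% O2. Members called were 0 lower in KO, 2 lower with NAC, 8 higher and 1 lower at 5% O2, and 23 higher and 1 lower for NAC against 5% O2. The pathway lists then had 0 genes higher in KO, 42 higher with NAC, 9 higher and 1 lower at 5% O2, and 19 higher for NAC against 5% O2. In that fit the sign changed for RPS27A (0.19) and RPL11 (0.072) in KO, for RPS27A (-0.28), RPL22L1 (-0.43), RPL22 (-0.34), RPL7 (-0.12) and BCCIP (-0.098) with NAC, and for RPS27A (-0.043) at 5% O2. With the coding trend removed, the medians were -0.072, 0.35, 0.17 and 0.16. Members called were 0 lower in KO, 44 higher and 3 lower with NAC, 9 higher at 5% O2, and 20 higher and 4 lower for NAC against 5% O2. The pathway lists had 1, 54, 8 and 21 genes higher, and 1 lower at 5% O2. The sign changed for RPS27A (0.15) and RPL11 (0.079) in KO, for RPL10 (-0.035) in NAC against 5% O2, and with NAC for RPL28 (-0.053), RPS27A (-0.18), RPLP2 (-0.072), RPS27L (-0.049), RPS27 (-0.15), RPL39L (-0.25), RPL39 (-0.029), RPL22L1 (-0.61), RPL22 (-0.49) and RPL7L1 (-0.27).

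Replicate numbers do not pair the samples. With a replicate block, 1 member was lower in KO, and 71, 47 and 51 were higher with NAC, at 5% O2 and for NAC against 5% O2. With the replicate block and the transcript trend removed, the medians were -0.12, 0.37, 0.20 and 0.18, members called were 0 lower in KO, 2 lower with NAC, 8 higher at 5% O2, and 22 higher and 1 lower for NAC against 5% O2. The pathway lists had 0, 41, 6 and 17 genes higher and 1 lower at 5% O2. The sign changed for RPS27A (0.18) and RPL11 (0.073) in KO, for RPS27A (-0.30), RPL22L1 (-0.49), RPL22 (-0.34), RPL7 (-0.12) and BCCIP (-0.096) with NAC, and for RPS27A (-0.048) at 5% O2.

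With each library left out in turn, members called in KO ran from 0 to 1 higher and from 0 to 16 lower, at 5% O2 from 0 to 60 higher, for NAC against 5% O2 from 14 to 52 higher and from 0 to 1 lower, and with NAC from 61 to 71 higher and from 0 to 1 lower. The median ran from 0.61 to 0.74 with NAC and from 0.26 to 0.40 at 5% O2. The large minus small subunit difference ran from -0.070 to 0.12 with NAC, from -0.043 to 0.044 at 5% O2 and from -0.082 to 0.094 for NAC against 5% O2. The pathway lists ran from 0 to 8 higher and 0 to 10 lower in KO, 0 to 44 higher and 0 to 15 lower at 5% O2, and 17 to 58 higher and 19 to 37 lower for NAC against 5% O2. In KO the sign changed for RPS18 (-0.11 to 1.67), RPL36A (-0.30 to 0.48), RPL17 (-0.085 to 0.30), RPS27A (-0.069 to 0.043), EEF1D (-5.68 to 0.027) and RPS9 (-0.50 to 3.30). With NAC it changed for RPL28 (-0.051 to 0.068), RPS9 (-2.24 to 1.89), RPS10 (-0.13 to 0.056), RPL7L1 (-0.038 to 0.31), RPL3L (-0.13 to 1.10), DDIT4 (-0.20 to 3.23) and RPL22L1 (-0.36 to 0.68). At 5% O2 it changed for RPS9 (-2.86 to 0.94) and RPL41 (-0.045 to 0.48), and for NAC against 5% O2 for RPS9 (-0.27 to 1.59). Precision is limited by 2 libraries per group, and where 1 library is left out its lone partner is assumed to vary like the other groups.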
